A study of Mus musculus with 6 samples.

Results

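The genes for the mouse receptors of the constant (Fc) part of IgG were followed in bone marrow-derived macrophages (BMDMs) 1 h after lipopolysaccharide (LPS), the outer membrane component of Gram-negative bacteria that is sensed by Toll-like receptor 4. The members were chosen by name: the activating receptors Fcgr1, Fcgr3 and Fcgr4, their shared signalling chain Fcer1g, the inhibitory receptor Fcgr2b and the neonatal Fc receptor Fcgrt. All 6 were found among the 55335 gene identifiers of the count table, and all 6 passed the filter on low counts, with 3575 to 26996 counts per library. Marrow cells came from C57BL/6 mice, which the library names give as WT (wild type) and for which the labels name no engineered allele. The cells were cultured with L929-conditioned medium and then given PBS (control) or LPS for 1 h. Each group had 3 RNA-seq libraries of total RNA, and the labels assign 1 control and 1 LPS library to each of 3 batches. The study's methods describe the mice as young adult males. The LPS dose of these libraries is not given in the sources used here, nor is whether the batches were separate animals, so p-values measure the spread between these libraries, which may be technical.

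Fc receptors bind the tail of antibodies that have coated a microbe or an immune complex. Fcgr1, Fcgr3 and Fcgr4 encode ligand-binding alpha chains that signal through an ITAM, an activating tyrosine motif carried by the Fcer1g chain, whereas the Fcgr2b protein carries an ITIM, an inhibitory motif that recruits phosphatases, and the balance of both sets the threshold for phagocytosis and cytokine release by macrophages. The Fcgrt protein pairs with beta-2 microglobulin inside endosomes and returns IgG to the cell surface, which protects it from degradation.

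The 6 genes lie on 3 chromosomes in the GENCODE M21 annotation of GRCm38. Fcgr2b (chr1:170958617-170976547, minus strand), Fcgr4 (chr1:171018920-171029761, plus strand) and Fcgr3 (chr1:171051174-171064935, minus strand) are neighbours, with 42372 bp between the first pair and 21412 bp between the second. Fcer1g (chr1:171229572-171234365, minus strand) lies farther along the same chromosome. Fcgr1 (chr3:96282909-96293969, minus strand) and Fcgrt (chr7:45092990-45103851, minus strand) stand apart from this cluster. Only Fcgr2b and Fcgr3 among the 6 had stretches of a read's length that also occur in another gene. In Fcgr3, 2.42% of such windows were shared with Fcgr2b, and in Fcgr2b, 4.23% were shared with any other gene. Counts of these genes carry that uncertainty because the handling of reads that match several genes is not given in the sources used here. The antisense gene Gm38204 shares 155 exon bases with Fcgr2b and had 1 to 5 counts per library.

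Promoter windows of the 4 alpha chains are shown because these genes bind the same ligand class but differed in their response to LPS. Each window runs 5′ to 3′ on the gene's strand, from 250 bases before to 50 bases after the RefSeq start (GRCm38.p6), and capitals mark any match to the 6 motifs searched. The windows are chr3:96293920-96294219 (minus) for Fcgr1, chr1:171018676-171018975 (plus) for Fcgr4, chr1:171059354-171059653 (minus) for Fcgr3 and chr1:170976022-170976321 (minus) for Fcgr2b. The starts used for Fcgr3 (the first of its RefSeq starts) and Fcgr2b lie inside the longer gene spans that GENCODE annotates. That of Fcgr4 does so by a few bases.
Fcgr1: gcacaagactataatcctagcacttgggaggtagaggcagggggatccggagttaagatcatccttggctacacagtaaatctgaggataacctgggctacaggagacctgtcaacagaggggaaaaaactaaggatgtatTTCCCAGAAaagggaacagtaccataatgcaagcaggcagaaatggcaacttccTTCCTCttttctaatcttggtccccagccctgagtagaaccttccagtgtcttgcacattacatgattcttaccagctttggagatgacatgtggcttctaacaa
Fcgr4: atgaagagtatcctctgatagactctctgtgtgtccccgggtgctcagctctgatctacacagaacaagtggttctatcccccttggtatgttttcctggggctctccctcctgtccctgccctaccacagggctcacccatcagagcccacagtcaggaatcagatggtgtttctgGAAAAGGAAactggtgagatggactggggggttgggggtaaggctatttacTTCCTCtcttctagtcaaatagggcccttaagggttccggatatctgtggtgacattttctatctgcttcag
Fcgr3: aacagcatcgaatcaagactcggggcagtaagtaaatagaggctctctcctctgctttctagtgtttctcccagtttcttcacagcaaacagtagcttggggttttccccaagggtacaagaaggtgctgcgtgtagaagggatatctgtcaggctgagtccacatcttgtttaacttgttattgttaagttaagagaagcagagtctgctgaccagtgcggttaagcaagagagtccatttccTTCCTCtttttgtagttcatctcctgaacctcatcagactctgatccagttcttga
Fcgr2b: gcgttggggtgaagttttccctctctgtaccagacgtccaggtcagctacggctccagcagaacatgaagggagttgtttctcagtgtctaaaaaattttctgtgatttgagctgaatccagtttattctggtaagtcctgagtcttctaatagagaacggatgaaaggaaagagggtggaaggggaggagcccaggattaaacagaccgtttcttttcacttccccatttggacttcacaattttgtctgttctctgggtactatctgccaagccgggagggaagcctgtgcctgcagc

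The motifs were searched on both strands. They were the interferon gamma-activated site TTCNNNGAA, the PU.1-type ETS motif GAGGAA, the core of the interferon-stimulated response element TTCNNTTTC, the kappa B motif GGGANTTTC, the AP-1 motif TGANTCA and the TATA box TATAAA. The Fcgr1 window held the interferon gamma-activated site, 109 bases before the start, in the form TTCCCAGAA. The PU.1-type motif was present on the opposite strand (read as TTCCTC) in Fcgr1 at 55 bases, in Fcgr4 at 22 bases and in Fcgr3 at 6 bases before the start. All 3 activating alpha chains thus held the motif of PU.1, an ETS factor of myeloid cells. Fcgr2b, in the window at its RefSeq start, held none of the 6 motifs. The Fcgr4 window also held the interferon-stimulated core on the opposite strand, 73 bases before the start. Among 32851 promoter windows of the same length, 8.3% held the interferon gamma-activated site, 28.3% the PU.1-type motif and 8.56% the interferon-stimulated core. For the motifs with no match in these windows, the shares were 1.11% for kappa B, 7.81% for AP-1 and 13.6% for the TATA box. The windows of Fcer1g and Fcgrt likewise held none of the 6. These matches describe letters in a window and not bound sites. The motifs were chosen after the promoters had been seen, so the shares over all windows do not test the contrast with Fcgr2b.

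Levels of different genes were compared per length, as TPM (transcripts scaled to a fixed sum per library), computed from the counts and the merged exon length. In control cells Fcgr3 stood at 1035, 975 and 1006 TPM in batches 1 to 3 (1005 ± 29.9, SD, n = 3). Fcer1g stood at 973, 1011 and 998 TPM (994 ± 19.0). The values of these leading genes overlapped, and they ranked 68 and 70 among 12146 tested protein-coding genes. Fcgr1, the high-affinity receptor for monomeric IgG, followed at 484 ± 10.5 TPM (rank 161). Fcgr4, which binds IgG2a and IgG2b complexes, came next at 336 ± 13.5 TPM (rank 280). Fcgrt reached 185 ± 5.14 TPM (rank 547). Fcgr2b was the lowest of the 6 at 68.2 ± 4.65 TPM (rank 1629). After Fcgr3 and Fcer1g, no neighbours in this order overlapped between libraries. Resting BMDMs thus held the alpha chain of Fcgr3 and the common chain at like levels and the inhibitory receptor at the lowest level per length. In LPS-treated cells Fcer1g led at 871, 790 and 816 TPM (826 ± 41.7) and Fcgr3 followed at 764, 680 and 775 TPM (740 ± 52.1), with no overlap. The rest of the order was the same, with Fcgr1 at 253 ± 4.55, Fcgr4 at 206 ± 11.2, Fcgrt at 160 ± 1.35 and Fcgr2b at 65.4 ± 1.36 TPM. TPM carries no correction between libraries, so it served for order within a group and not for differences between groups.

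Between groups, the counts were scaled by TMM, which takes most genes to be unmoved, and expressed as CPM, counts scaled to a fixed library total. The activating genes gave different responses. Fcgr1 had 404, 396 and 389 CPM in the control libraries and 281, 288 and 284 CPM in the LPS libraries. The LPS libraries all lay below the controls and varied little. The mean fell by 28.3%, a log2 fold change of -0.48 (SE 0.03, 95% interval -0.55 to -0.41, edgeR's quasi-likelihood test, adjusted p = 2.62e-10), and within batches it was -0.52, -0.46 and -0.46. Fcgr4 had 139, 131 and 130 CPM in control and 116, 110 and 111 CPM in LPS libraries. These groups did not overlap either, and the fold change was -0.25 (SE 0.04, edgeR adjusted p = 9.25e-06), with -0.27, -0.26 and -0.23 within batches. Fcgr3, a receptor for immune complexes, had 567, 534 and 554 CPM in control and 565, 530 and 576 CPM after LPS. The groups overlapped and the log2 fold change was 0.01 with TMM (95% interval -0.07 to 0.09, edgeR adjusted p = 0.765), with 0.00, -0.01 and 0.05 within batches, but -0.39 with library size alone (edgeR adjusted p = 5.2e-08) and -0.13 with upper quartile scaling (edgeR adjusted p = 0.00549).

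**Figure D1:**
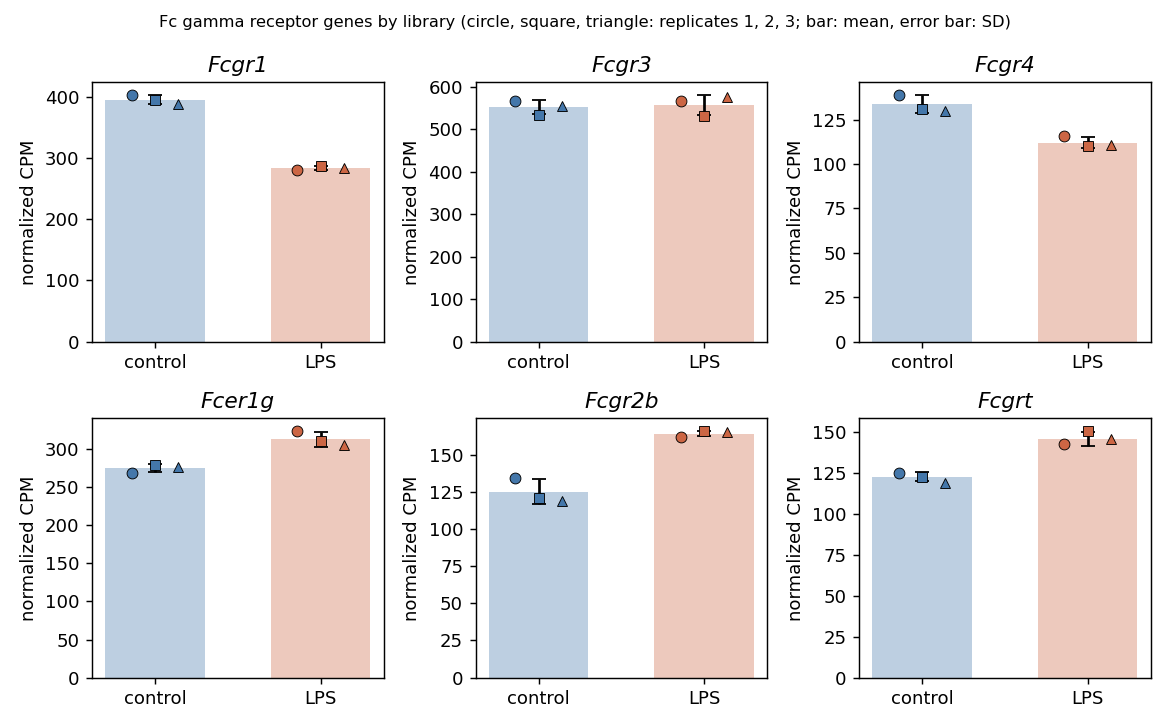
Normalized CPM (TMM scaling, vertical axes) of the 6 Fc receptor genes in each of the 3 control and 3 LPS libraries, shown as points, with the group mean and SD. Fcgr1 and Fcgr4 lie lower after LPS and Fcgr3 overlaps (552 against 557 CPM); Fcer1g, Fcgr2b and Fcgrt lie higher on this scale, but scaled by library size alone their log2 fold changes are -0.22, -0.01 and -0.15.

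The common chain, the inhibitory receptor and the neonatal receptor were higher after LPS on this scale. Fcgr2b had 134, 121 and 119 CPM in control and 162, 166 and 165 CPM in LPS libraries. Every LPS library was above every control, although control 1 stood closer than the others. On the TMM scale Fcgr2b rose by 31.5% (log2 0.40, SE 0.04, 95% interval 0.31 to 0.48, edgeR adjusted p = 1.2e-07; 0.27, 0.45 and 0.47 within batches), whereas by library size alone the log2 value was -0.01 (edgeR adjusted p = 0.833). Fcgrt had 125, 123 and 119 CPM in control and 143, 151 and 146 CPM in LPS libraries. Again the groups did not overlap, and Fcgrt rose by log2 0.25 with TMM (SE 0.03, edgeR adjusted p = 3.69e-06; 0.19, 0.29 and 0.29 within batches) but was lower by library size alone, at -0.15 (edgeR adjusted p = 0.000551). Fcer1g had 268, 279 and 277 CPM in control and 324, 310 and 305 CPM in LPS libraries. The groups were separate, and Fcer1g rose by log2 0.19 with TMM (SE 0.03, edgeR adjusted p = 8.21e-05; 0.27, 0.15 and 0.14 within batches) but was lower by library size alone, at -0.22 (edgeR adjusted p = 1.65e-05).

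With TMM, 3 of the 6 genes rose and 2 fell at an adjusted p below 0.05, against 32.9% and 34.9% of all 15687 tested genes that rose or fell (with library size alone, 0 rose and 5 fell). None of the 6 also passed the study's criterion of an absolute log2 fold change above 1, which 10.5% of tested genes passed upward and 10.4% downward. Of the 6, 5 had groups that did not overlap in CPM, as did 70.5% of all tested genes. With 6 genes, these shares do not set the Fc receptor genes apart from the other genes of these libraries. LPS at 1 h changed the composition of the libraries: the total was 37787611 to 41516330 counts in all 6, but TMM factors were near 1.15 in control and 0.864 to 0.872 in LPS libraries. The median log2 fold change of all tested genes was -0.01 with TMM and 0.01 with DESeq2's size factors, but -0.16 with upper quartile scaling and -0.42 with library size alone. Relative to that median gene, Fcgr1 was at -0.47, Fcgr4 at -0.24, Fcgr3 at 0.03, Fcer1g at 0.20, Fcgrt at 0.27 and Fcgr2b at 0.41 under all 4 scalings. A scaling shifts all genes by the same amount, so these relative values are the same by construction, but the sign of Fcgr2b, Fcgrt, Fcer1g and Fcgr3 depended on it. In bulk RNA, less RNA per cell and fewer expressing cells cannot be told apart.

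**Figure D2:**
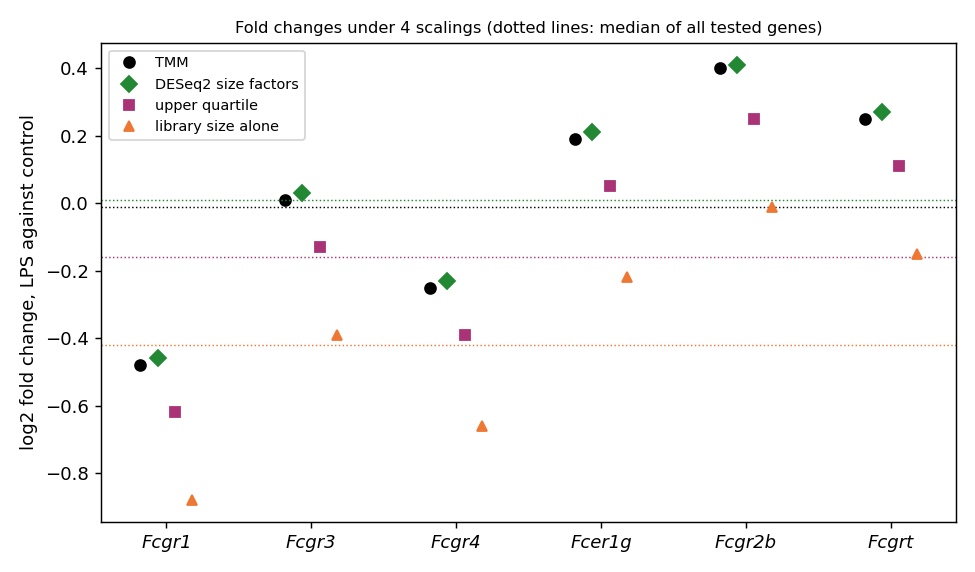
Log2 fold change (LPS against control, n = 3 each) of the 6 Fc receptor genes and of the median tested gene under 4 ways of scaling the libraries. The genes shift together: Fcgr1 goes from -0.48 with TMM to -0.88 with library size alone, and Fcgr2b from 0.40 to -0.01.

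A ratio of counts of genes in the same library does not depend on the scaling between libraries, so it was taken for all 15 pairs of the 6 genes. The log2 ratio of Fcgr1 to Fcgr2b was 1.59, 1.71 and 1.71 in control and 0.79, 0.79 and 0.78 in LPS libraries. The high-affinity activating receptor was thus lower against the inhibitory one in every LPS library, by a log2 difference of -0.88 (1.67 ± 0.07 to 0.79 ± 0.01, SD, n = 3 each). The ratio of Fcgr4 to Fcgr2b went from 0.05, 0.11 and 0.13 to -0.49, -0.60 and -0.56. The sign turned, so that Fcgr4 counts went from just above to below Fcgr2b counts (difference -0.65). The ratio of Fcgr3 to Fcgr2b was 2.08, 2.14 and 2.22 in control and 1.80, 1.68 and 1.81 in LPS libraries, a difference of -0.38 with no overlap. All 3 activating alpha chains were thus lower relative to Fcgr2b after LPS in these libraries. The exact two-sided permutation p was 0.1 for each of these ratios, the smallest that 3 against 3 libraries allow (0.1154 after Benjamini-Hochberg adjustment over 15 pairs), so this test cannot pass 0.05. Of all other tested genes, 62.9% also had a lower ratio to Fcgr2b in every LPS library than in any control.

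**Figure D3:**
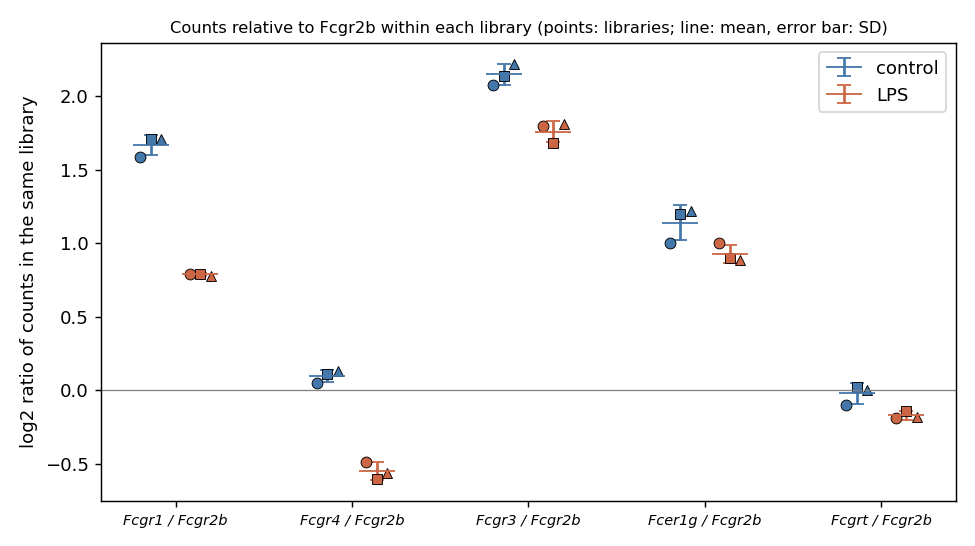
Log2 ratio of counts of each Fc receptor gene to Fcgr2b within the same library (vertical axis) for the 3 control and 3 LPS libraries. The ratios of Fcgr1, Fcgr3 and Fcgr4 are lower in every LPS library, while those of Fcer1g overlap.

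The common chain stood between the activating alpha chains and the inhibitory receptor. The log2 ratio of Fcer1g to Fcgr2b was 1.00, 1.20 and 1.22 in control and 1.00, 0.90 and 0.89 in LPS libraries, and the groups overlapped through control 1 and LPS 1 (difference -0.21, exact permutation p = 0.2, adjusted 0.2143). Against its partner chains Fcer1g was higher: the log2 ratio of Fcgr1 to Fcer1g went from 0.59, 0.51 and 0.49 to -0.21, -0.11 and -0.11 (difference -0.67). The same difference was -0.44 for Fcgr4 and -0.18 for Fcgr3 against Fcer1g, both without overlap. Among the activating alpha chains, Fcgr1 was lower against Fcgr3 in every LPS library (-0.49, -0.43 and -0.51 in control, -1.01, -0.88 and -1.02 in LPS) and against Fcgr4 by -0.23, while Fcgr3 was higher against Fcgr4 by 0.26. Fcgr1, Fcgr4 and Fcgr3 were lower against Fcgrt by -0.73, -0.51 and -0.24. The ratio of Fcgr2b to Fcgrt was 0.10, -0.02 and 0.00 in control and 0.19, 0.14 and 0.18 in LPS libraries, a difference of 0.14, and Fcer1g against Fcgrt overlapped (-0.07). In all, 13 of the 15 pairs had groups that did not overlap, as did 70.8% of all pairs of tested genes.

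Per length, the activating alpha chains together had 25.6, 27.0 and 27.8 times the TPM of Fcgr2b in control libraries and 18.8, 17.6 and 18.6 times in LPS libraries. The inhibitory receptor took 3.60 ± 0.15% of the summed TPM of the 4 alpha chains in control and 5.18 ± 0.18% in LPS libraries (SD, n = 3). Fcgr1 went from 25.6 ± 0.482% to 20.0 ± 0.738% and Fcgr3 from 53.1 ± 0.645% to 58.5 ± 1.05%. Fcgr4 went from 17.8 ± 0.271% to 16.3 ± 0.387%. These sums were chosen after the single genes had been seen and are a description without a test, but they show that Fcgr3 made up most of the alpha chain RNA in both groups. Their size depends on the length used: Fcgr2b has 5790 bp of merged exons, but its longest transcript has 3544 bp. By the longest transcript, Fcgr2b stood at 90.9 TPM in control (68.2 by merged exons) and 88.7 TPM in LPS libraries (65.4). The ratios to Fcgr2b would then be smaller and its share larger.

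Genes that act downstream of the receptors were taken from lists of known components. Among 24 genes of activating signalling, 15 rose, 3 fell and 6 were not called with TMM (median log2 0.21, against -0.01 over all tested genes), but 7 rose and 13 fell with library size alone. For this and the following lists, the shares over all tested genes were 32.9% that rose and 34.9% that fell with TMM, and 15% and 65.9% with library size alone. Lcp2, the adaptor SLP-76, rose most, from 2059, 1895 and 2000 counts to 6203, 6213 and 6392 (log2 2.13, SE 0.03, edgeR adjusted p = 1.79e-19; 1.73 with library size alone). The phosphoinositide 3-kinase subunits Pik3r1 and Pik3cb rose by log2 1.37 and 1.11, and by 0.96 and 0.71 with library size alone. The adaptor Sh3bp2 fell from 8150, 7998 and 7669 counts to 2897, 3065 and 3009 (log2 -0.94, edgeR adjusted p = 2.07e-13). Card9, an adaptor toward NF-kappa B, and the adaptor Lat2 also fell, at -0.17 and -0.11. Up to 3 genes that rose and 3 that fell were named per list, so the named genes do not show its balance. That balance was 15 rose against 3 fell with TMM. With library size alone, Lcp2, Pik3r1 and Pik3cb still rose, while Sh3bp2, Card9 and Lat2 fell, at -1.34, -0.57 and -0.52.

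Among 13 genes of inhibitory signalling, 7 rose, 5 fell and 1 was not called with TMM (median log2 0.12), but 1 rose and 12 fell with library size alone. The part that fell with TMM lay near the 34.9% of all tested genes. Inpp5d, the phosphatase SHIP1 that Fcgr2b recruits, rose by log2 0.32 with TMM (SE 0.03, edgeR adjusted p = 6.8e-08) but was at -0.08 with library size alone. Pag1, an adaptor that holds the kinase Csk at the membrane, rose under both scalings (1.03 and 0.62). The docking proteins Dok1 and Dok2 fell, at -1.17 and -0.27, and so did the phosphatase SHP-1, Ptpn6, at -0.17 (edgeR adjusted p = 0.00084). Dok1 went from 3439, 3574 and 3466 counts to 1201, 1114 and 1049. The list thus held genes that moved both ways beside Fcgr2b.

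Among 22 genes of the phagocytic cup and the NADPH oxidase, 19 rose, 1 fell and 2 were not called with TMM (median log2 0.22; 32.9% of all tested genes rose), but 6 rose and 14 fell with library size alone, where 65.9% of all tested genes fell. The genes with the largest rise kept their direction under both scalings. Marcks, an actin-binding substrate of protein kinase C, rose by log2 0.88 (0.48 with library size alone), the phospholipase Pla2g4a by 0.75 (0.35) and Cybb, the oxidase's catalytic subunit, by 0.68 (0.27). Was, which drives actin branching, was the gene that fell, at -0.10 (edgeR adjusted p = 0.0161). None of the 22 passed a log2 change of 1.

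Some other receptors that use ITAM chains had larger fold changes than any Fc gamma receptor gene. Of 13 listed, 12 were found and 10 were tested, of which 7 rose and 3 fell with TMM (median log2 0.42), and 5 rose and 4 fell with library size alone. The part that fell with TMM was close to the 34.9% of all tested genes. Trem1, an amplifier of inflammation, went from 4, 7 and 8 counts to 690, 605 and 713 (log2 7.16, SE 0.15, edgeR adjusted p = 1.01e-17). Clec4e (Mincle), a receptor that signals through the Fcer1g chain, went from 2324, 1947 and 2240 counts to 49190, 44725 and 52129 (log2 4.96, SE 0.06, edgeR adjusted p = 7.94e-22). Clec4d rose by 1.71. So Clec4e and Clec4d, whose proteins also pair with the common chain, rose while Fcer1g itself stood at 0.19 with TMM (-0.22 with library size alone). Trem2, Sirpb1a and Pilrb1 fell, at -0.17, -0.24 and -0.32.

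Of 13 other Fc receptors and partners, 7 were tested, of which 3 rose and 1 fell with TMM (median log2 0.10), and 1 rose and 4 fell with library size alone. These shares lay near those of all tested genes (32.9% rose with TMM, 65.9% fell with library size alone). B2m, the light chain of the neonatal receptor, was at log2 0.10 with TMM (SE 0.03, edgeR adjusted p = 0.0143) and -0.30 with library size alone. Fcrls, a scavenger receptor-like relative of the Fc receptors, was at 0.13 and -0.28 under the same scalings. Trim21, the cytosolic antibody receptor, fell from 2332, 2248 and 2267 counts to 993, 925 and 947 (log2 -0.79, SE 0.04, edgeR adjusted p = 1.45e-11).

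**Figure D4:**
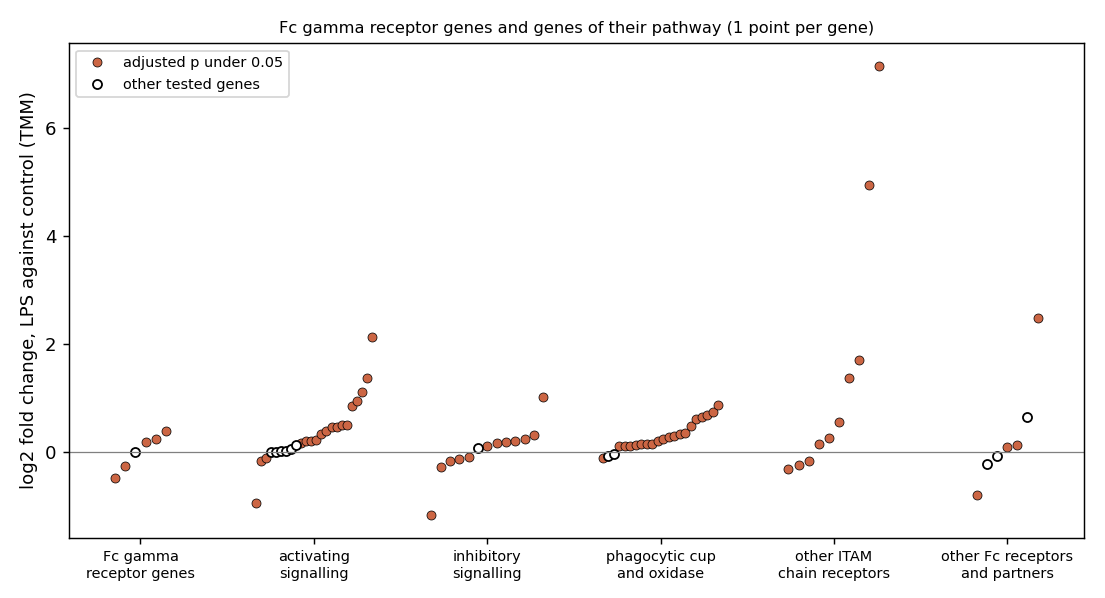
Log2 fold change (TMM, LPS against control, n = 3 each) of the tested genes of the 5 pathway lists, 1 point per gene, beside the 6 Fc receptor genes. Filled points passed an adjusted p of 0.05 in edgeR's quasi-likelihood test. The Fc receptor genes lie between -0.48 and 0.40, and Trem1 stands highest at 7.16; with library size alone the median of all tested genes shifts by -0.40, so points just above 0 take a negative sign.

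Genes beside the members on the chromosome were measured in the same fit. Beside Fcgr1, the histone genes Hist2h3b and Hist2h2bb fell, at log2 -1.80 (SE 0.16, edgeR adjusted p = 1.16e-08) and -1.17 (SE 0.07, edgeR adjusted p = 1.18e-10), and BC107364 and Hfe2 had 0 counts. Beyond Fcgr3, Cfap126 was at -0.02 and Sdhc at 0.01 (edgeR adjusted p = 0.963 and 0.86). On the other side of the cluster, Fcrlb, a receptor-like relative, went from 10, 9 and 8 counts to 26, 44 and 40 (log2 2.48, SE 0.31, edgeR adjusted p = 1.15e-06), while Fcrla, with 6 to 13 counts, was not tested. These low counts came from genes far below Fcgr2b in level. Beside Fcer1g, Adamts4, an extracellular protease, went from 7, 5 and 7 counts to 112, 100 and 102 (log2 4.49, SE 0.22), and Tomm40l fell at -0.38 (edgeR adjusted p = 2.53e-06). Apoa2 had 0 to 10 counts. Beside Fcgrt, Nosip and Rcn3 fell at -0.68 and -1.08, and the ribosomal protein gene Rpl13a was at 0.14 (edgeR adjusted p = 0.029). Fcgrt was thus higher with TMM while Rcn3, 768 bp away, was lower.

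Over the 6 libraries, the genes most like each member were found among 12137 genes by the Euclidean distance of log2 CPM, each gene centred on its own mean. They were Fgd3 and Uckl1 for Fcgr1 (distance 0.0247 and 0.0321), Pikfyve and Exoc6 for Fcgr3 (0.0249 and 0.0262), and Gtf3c6 and Cacna1d for Fcgr4 (0.0368 and 0.0413). For Fcer1g they were Rps27 and Cs (0.0352 and 0.0382), for Fcgrt Arfgap2 and Myo1c (0.03 and 0.0358), and for Fcgr2b Dpf2 and Sncaip (0.0633 and 0.0665). No member was among the nearest genes of another.

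The label of macrophages was set beside marker genes. The 8 macrophage markers summed to 29676 to 30943 CPM in control and 35710 to 36054 CPM in LPS libraries. Markers of neutrophils, which also carry Fc receptors, summed to 37.1 to 39.6 and 49.5 to 51.7 CPM over 8 genes, with Ly6g at or under 3 counts. For B cells, which express Fcgr2b, the 5 markers summed to 2.88 to 3.17 CPM in control and 2.88 to 3.64 CPM in LPS libraries. These sums overlapped between groups, and of the 2 B cell markers that could be tested 1 rose with TMM. The sums were 0.861 to 1.17 and 0.766 to 0.924 CPM for T and NK cells (6 genes), 1.76 to 2.01 and 10.4 to 11.6 CPM for mast cells and basophils (5 genes), 3.15 to 4.01 and 9.62 to 10.6 CPM for dendritic cells (4 genes), and 11.3 to 12.2 and 13.1 to 14.3 CPM for fibroblasts (4 genes). With TMM, 32.9% of all tested genes rose. Of the 4 mast cell and basophil markers tested 3 rose, led by Hdc, the histamine-forming enzyme (30 to 35 counts in control, 274 to 336 after LPS). Cpa3 and Mcpt8, which also rose, had only 17 to 34 counts. Ms4a2, at 9 to 19 counts, was at log2 -0.22, and Fcer1a, at 0 to 8 counts, was not tested. All 4 dendritic cell markers rose, by log2 1.07 to 3.92, while none of the fibroblast markers was called. The part of these other cell types in the Fc receptor values was not tested.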

How the data were processed

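BMDMs from C57BL/6 mice were given PBS or LPS for 1 h, and total RNA was sequenced in 6 libraries (3 per group). The deposited counts per gene were made by the authors from paired-end reads with HISAT2 2.1.0, SAMtools 1.17 and featureCounts 2.0.0 on GRCm38, after FastQC 0.11.9, per the submitters' processing notes. The annotation release and the strand and multi-mapping settings are not given in the sources used here. Identifiers were matched to GENCODE M21 for positions and lengths (181 of 55335 had no match).

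edgeR 4.0.16 (R 4.3.3) was applied to the counts as deposited: filterByExpr kept 15687 genes, TMM scaled the libraries, and the quasi-likelihood F test compared LPS with control without covariates, and p-values were adjusted by Benjamini-Hochberg across the 15687 genes. Calls used adjusted p below 0.05, and with the study's fold criterion an absolute log2 fold change above 1. DESeq2 1.42.0 and limma 3.58.1 (voom) served as alternatives, with other scalings and filters, the replicate block and each library left out. The scripts were tested on simulated counts of 3 against 3 libraries, with 200 of 15687 genes changed and a set coefficient of variation of 0.05. Of changes of log2 0.4, edgeR recovered 63.5%, DESeq2 53.0% and voom 59.5%. Of changes of log2 2.0, edgeR recovered 96.5%. False calls by edgeR were 14 and 7 in these runs. The changed genes were few and went up and down in equal number, so these runs do not test the scaling between libraries. Log2 CPM used a prior count of 0.5. Intervals and floors of 3 counts cover counting error or the fitted spread only. Total counts per library were 37787611 to 41516330.

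The labels give the numbers 1 to 3 as a batch in both groups, which allows the samples to be paired by number. Correlations of same-numbered libraries' deviations were -0.0227, 0.157 and 0.0561, and those of different-numbered libraries ran from -0.154 to 0.1. No library was a copy of another (chi-square per gene 5.41 to 20.3).

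The members and gene lists were chosen with earlier results of these data known, and the motifs after the promoters had been seen. Named genes were the 6 members, B2m, from each list up to 3 that rose and 3 that fell most among called genes whose mean reached 50 counts, the 2 nearest protein-coding genes on each side of a member, and the 2 genes nearest in pattern. Fcrlb and the other Fc receptor relatives named as neighbours fall under that rule. A few genes that the rule names are not reported here.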

Additional observations from a re-analysis of the deposited data

How the results depend on the processing

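The scaling of the libraries limits the direction of small changes. With library size alone, the log2 fold changes became -0.39 for Fcgr3, -0.22 for Fcer1g, -0.00956 for Fcgr2b and -0.15 for Fcgrt. Upper quartile scaling gave -0.13 for Fcgr3, which then passed the threshold (edgeR adjusted p = 0.00549). It gave 0.0462 for Fcer1g, which no longer passed it (edgeR adjusted p = 0.233). With TMM, Fcgr3 was not called, and it was -0.0111 without a filter, -0.0033 with 10 counts required, and -0.0149 to 0.0488 when each library was left out. The calls of Fcgr1 and Fcgr4 held under every alternative run. The replicate block (pairing by batch) gave -0.479 for Fcgr1 and 0.397 for Fcgr2b and changed no call of the 6 genes.

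With library size alone, 2354 genes rose and 10337 fell, 2964 of them past the fold criterion, and of the 6 members 0 rose and 5 fell. The list counts were then 7 rose and 13 fell for activating signalling (1 and 1 past the fold), 1 and 12 for inhibitory signalling (0 rose past the fold), 6 and 14 for the phagocytic cup, and 1 and 4 for other Fc receptors (1 fell past the fold). With upper quartile scaling, 8 of activating signalling fell (1 past the fold), 3 of inhibitory signalling rose (0 past the fold), 11 of the phagocytic cup rose and 3 fell, and 1 of the other Fc receptors rose and 2 fell. Requiring 10 counts left 1027 genes that fell past the fold, since fewer genes were tested, and 0 of the other Fc receptors past it. The phagocytic genes that fell were 2 with no filter, 10 counts, voom, the replicate block or without the 10 highest genes, and 0 with the DESeq2 test.

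With each library left out, 3 to 5 inhibitory genes fell (3 without control 2 or LPS 3), 1 to 2 phagocytic genes fell (2 without control 3), and 1 to 2 other Fc receptors rose past the fold (2 without control 3). Fcgr3 and Fcer1g exchanged ranks 1 to 2 in control cells without control 1. The cause of these shifts was not tested.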
